A study of Rattus norvegicus with 6 samples.

Results

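The genes of the mitochondrial protein import machinery were examined in RNA from diabetic rats with and without liraglutide, a drug that activates the receptor of the gut hormone GLP-1. They were chosen by symbol: the Timm and Tomm families, the import motor (Pam16, Dnajc19, Grpel1, Grpel2, Hspa9), the matrix chaperonin Hspd1 and Hspe1, Samm50 and the metaxins Mtx1 to Mtx3, the processing peptidase Pmpca and Pmpcb, the cristae protein Immt, and the Chchd family. Of 18166 genes with a probe set of their own, 43 belonged to this set. Both groups were male Sprague–Dawley rats on a high-fat diet that were made diabetic with streptozotocin, a toxin of insulin-producing cells. The Hlirag group then received the high dose of liraglutide and the diabetic group vehicle, with 3 Affymetrix Rat Gene 2.0 ST arrays each. The sample labels say only liraglutide-treated or diabetic, at an age of 17 weeks, and the dose group was taken from the study. The starting age, diet and treatment times in the study's methods add up to more than 17 weeks. Whether the 3 arrays of a group came from different rats is not given in the sources used here. The p-values therefore reflect variation among arrays, which may not be variation among rats.

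The label of cardiac muscle was checked against marker genes before the results. Of 15 measured ventricular cardiomyocyte markers, 1, Pln, lay above the background level on every array. Myh6, Tnnt2 and Tnni3 were high only on Hlirag replicate 1 and diabetic replicate 1. Other markers differed from these. Myh7, Myl3 and Tnnc1 were highest on diabetic replicate 2 and next on diabetic replicate 1, and Nppa, Nkx2-5 and Gata4 lay below background on every array. The sample titles begin with arota, and their descriptions speak of adipose from another experiment. All 10 adipocyte markers and all 12 measured smooth muscle markers lay above background on every array. Pln was lowest on Hlirag replicate 3 (7.18), as was the summed log2 level of the smooth muscle markers (99.27). The 7 measured skeletal muscle markers were high on diabetic replicates 1 and 2 alone, the arrays where Myh7, Myl3 and Tnnc1 were highest. The summed log2 level of the 7 was 36.31 to 81.22 in the diabetic group and 35.14 to 36.55 in Hlirag. The summed level of 7 measured brown adipocyte markers was 52.57 to 59.47 in Hlirag and 46.58 to 55.22 in the diabetic group. The part of these cell types in the results below was not tested. In bulk RNA, fewer cells of a type and less RNA per cell cannot be told apart. Hlirag replicate 3 also stood apart technically, with an SD of 1.52 over genes against 1.84 to 1.98 on the other arrays.

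Most mitochondrial proteins are made in the cytosol and imported unfolded. The TOM complex of the outer membrane recognises and admits them. From there, the SAM complex inserts barrel-shaped proteins into the outer membrane, small Tim chaperones carry hydrophobic proteins across the intermembrane space to the TIM22 translocase, and the TIM23 translocase passes proteins with a presequence through the inner membrane. A motor built around the chaperone Hspa9 pulls them into the matrix, where a peptidase removes the presequence and the chaperonin folds them. Tissues rich in mitochondria, such as heart and brown fat, depend on this traffic.

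Import genes were well represented on the arrays: 31 of 43 lay above background on every array, and 10 had a mean below it. Background was the 95th percentile of 68 olfactory receptor genes, a log2 signal of 6.01. A further 10 protein-coding genes that the symbols would take in, among them Timm50, Dnajc19, Chchd2 and Chchd4, had no probe set with a single symbol and gave no value. Members Timm23b and Tomm5-ps1 are annotated as pseudogenes and Chchd4l1 as a long non-coding RNA. Their signal may include that of the related genes.

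The promoters of 5 members are shown because 3 of them, Timm21, Samm50 and Pmpcb, passed the study's thresholds when the p of limma was used, and Grpel1 and Hspe1 were among the members with the next lowest p. Immt lay nearer to the thresholds than these 2, but no promoter of it was matched. Each run is the 250 bases before the gene's start from RefSeq (GRCr8), 5′ to 3′ on the gene's strand. They lie at chr18:80594238-80594487 (minus strand, Timm21), chr7:117197210-117197459 (plus, Samm50), chr4:14202585-14202834 (minus, Pmpcb), chr14:78522869-78523118 (minus, Grpel1) and chr9:64084077-64084326 (plus, Hspe1). Capitals mark the letters CCGGAAG, a motif of ETS factors such as the mitochondrial gene regulator GABPA, searched on both strands.
Timm21: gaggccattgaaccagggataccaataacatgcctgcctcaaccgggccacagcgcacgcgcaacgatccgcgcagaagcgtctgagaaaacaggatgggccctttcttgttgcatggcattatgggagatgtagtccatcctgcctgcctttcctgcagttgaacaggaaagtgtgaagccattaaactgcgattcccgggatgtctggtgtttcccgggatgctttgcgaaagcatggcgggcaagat
Samm50: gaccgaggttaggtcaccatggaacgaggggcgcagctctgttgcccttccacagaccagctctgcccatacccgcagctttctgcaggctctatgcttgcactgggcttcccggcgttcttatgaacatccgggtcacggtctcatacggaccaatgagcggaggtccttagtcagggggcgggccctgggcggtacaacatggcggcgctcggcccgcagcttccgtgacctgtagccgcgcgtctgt
Pmpcb: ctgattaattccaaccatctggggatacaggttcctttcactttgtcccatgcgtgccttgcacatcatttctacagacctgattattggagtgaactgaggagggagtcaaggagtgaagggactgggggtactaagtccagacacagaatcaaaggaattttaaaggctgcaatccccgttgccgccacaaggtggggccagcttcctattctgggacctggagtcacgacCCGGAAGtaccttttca
Grpel1: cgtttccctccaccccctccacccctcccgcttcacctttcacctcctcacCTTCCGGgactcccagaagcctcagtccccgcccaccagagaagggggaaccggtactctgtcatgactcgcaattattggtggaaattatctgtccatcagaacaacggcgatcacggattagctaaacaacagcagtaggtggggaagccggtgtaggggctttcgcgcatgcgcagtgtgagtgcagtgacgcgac
Hspe1: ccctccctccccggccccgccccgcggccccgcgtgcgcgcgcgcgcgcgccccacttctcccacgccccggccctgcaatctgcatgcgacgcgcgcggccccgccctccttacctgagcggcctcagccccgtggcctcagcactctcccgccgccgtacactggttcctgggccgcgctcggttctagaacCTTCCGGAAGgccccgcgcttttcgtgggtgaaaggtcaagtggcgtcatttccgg
Promoters of 38 members were found. The ETS letters stood in 17 of them (44.7%), against 7.27% of all 33469 promoters of this length and 10.4% of those of measured genes. They stood in the outer membrane receptors Tomm20, Tomm22 and Tomm70 and in Pmpca, Pmpcb, Grpel1, Grpel2, Hspd1 and Hspe1, but not in the windows of Timm21 and Samm50. Hspd1 and Hspe1 lie head to head on chromosome 9 with starts 290 bases apart, and their windows share 211 bases. The ETS letters of these genes are the same stretch of the shared bases, counted for each gene. The letters TCAAGGTCA, a motif of the estrogen-related receptors, stood in Timm8b alone (2.63% of members against 0.388% of all promoters). Motifs of NRF1, the heat shock element and PPAR were searched as well. They were left out after their counts had been seen, so both motifs given are a selection. The reason was that they are longer than these and no source used here holds their letters. A match describes letters and is not a binding site.

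Hlirag was compared with diabetic to ask whether import genes differed with liraglutide. Timm21, Samm50 and Pmpcb were higher in Hlirag, and no member was lower, at a criterion with the study's thresholds, a fold change over 1.5 together with an unadjusted p under 0.05, here that of limma. These 3 are 6.98% of the members, while 3.78% of all genes met the criterion, 1.62% as higher and 2.16% as lower. No member, and no gene of the array, passed an adjusted p under 0.05 in limma. An unadjusted p under 0.05 was reached by 752 genes in limma and 690 in the test that the study's methods name, which called no member at the same thresholds and 1.30% of all genes. In that test the unadjusted p was 0.13 for Timm21, 0.0514 for Samm50 and 0.0595 for Pmpcb. The median log2 fold change, Hlirag minus diabetic, was 0.11 over the members with 28 of 43 above 0, and 0.00 over all genes with 50.2% above 0. Centring each array on its median shifted all genes by a median of -0.14 and brought the members' median to -0.03, with no member at the criterion.

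**Figure D1:**
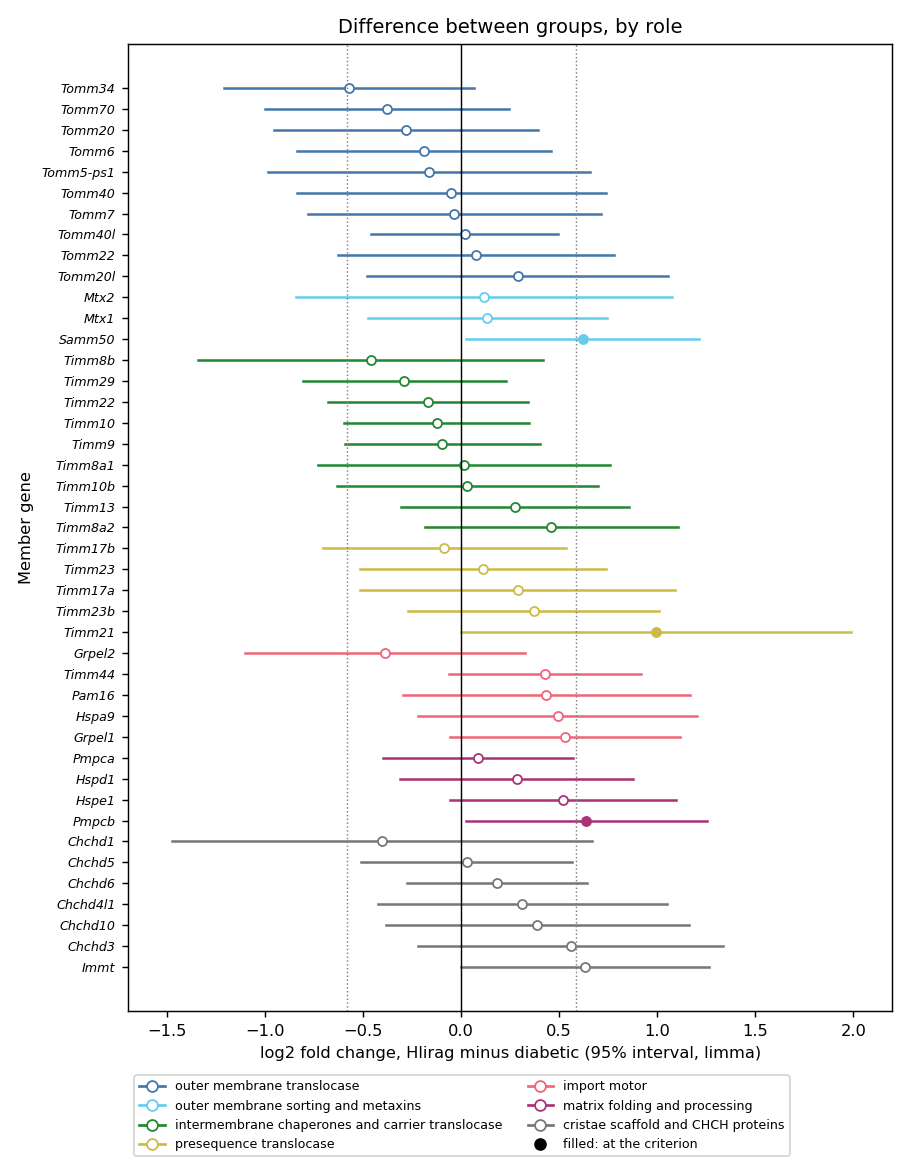
Log2 fold change (x axis, Hlirag minus diabetic) of each of the 43 members (y axis, grouped and coloured by role) with the 95% interval of limma. Dotted lines mark a fold change of 1.5, and filled points the 3 members at the criterion, Timm21, Samm50 and Pmpcb.

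Timm21, an inner membrane subunit that links the TIM23 translocase to the TOM complex and the respiratory chain, had log2 levels of 8.32, 9.35 and 8.58 in Hlirag and 8.09, 8.26 and 6.92 in diabetic replicates 1 to 3. Hlirag 2 was the highest and diabetic 3 by far the lowest, and the groups did not overlap. Its mean was 8.75 ± 0.54 against 7.76 ± 0.73 (SD, n = 3), a log2 difference of 0.99 (SE 0.43, limma, unadjusted p = 0.0498, adjusted p = 0.78), which became 0.57 without diabetic replicate 3. Samm50, the core of the SAM complex, measured 8.30, 8.89 and 8.52 in Hlirag and 7.95, 8.20 and 7.70 in the diabetic group. The groups did not overlap, and diabetic 2 lay just below Hlirag 1. The difference was 0.62 (SE 0.26, limma, unadjusted p = 0.0428, adjusted p = 0.78). Pmpcb, the catalytic subunit of the peptidase that cuts presequences, measured 8.71, 9.37 and 8.89 in Hlirag and 8.56, 8.41 and 8.08 in the diabetic group. Hlirag 2 again stood highest, and the groups did not overlap. The difference was 0.64 (SE 0.26, limma, unadjusted p = 0.0439, adjusted p = 0.78).

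For a single gene, an exact two-sided permutation test of 3 against 3 arrays cannot give a p below 0.1. All 3 calls were lost without Hlirag replicate 2, without diabetic replicate 1 or without diabetic replicate 3, and also with array weights, an intensity trend or dim genes left out. The log2 fold changes of Timm21, Samm50 and Pmpcb fell to 0.69, 0.46 and 0.45 without Hlirag 2 and to 0.57, 0.49 and 0.50 without diabetic 3. Without diabetic 1 they were 1.16, 0.62 and 0.75, and with an intensity trend or dim genes left out they were those of the full comparison. Without diabetic replicates 1 and 2, which carried the skeletal muscle signal, they were 1.83, 0.87 and 0.91. Only diabetic 3 then stood for its group. It was the lowest array for each of these genes, so larger values had to follow. The part of skeletal muscle was not tested.

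**Figure D2:**
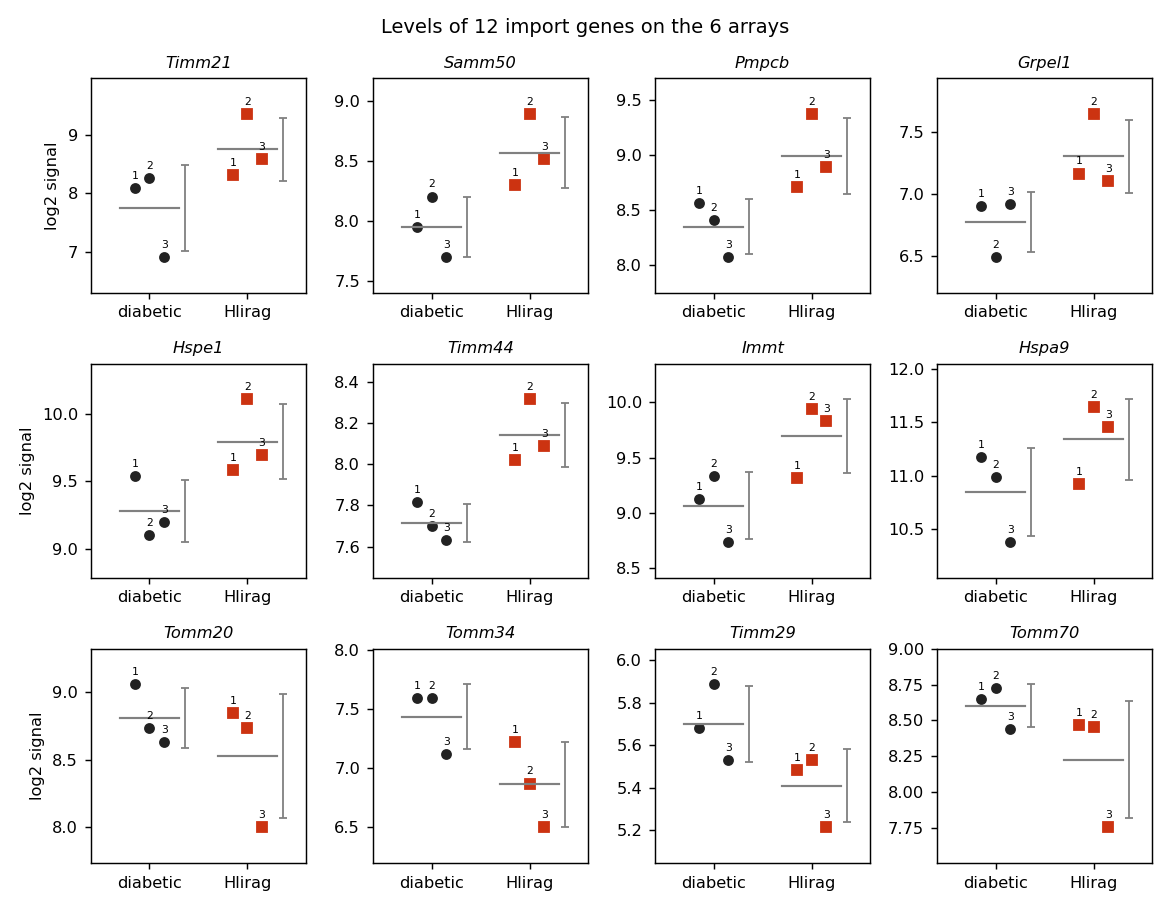
Log2 signal (y axis) of 12 members in the diabetic and Hlirag groups (x axis), with each array's replicate number, the mean as a line and the SD as a bar (n = 3). Timm21, Samm50, Pmpcb, Grpel1, Hspe1 and Timm44 do not overlap between groups, and Hlirag 3 is the lowest array for Tomm20, Tomm34, Timm29 and Tomm70.

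At the outer membrane no TOM gene met the criterion, and the median of the 10 was -0.11 with 3 above 0. These 10 include the pseudogene Tomm5-ps1 (-0.165) and the cytosolic Tomm34. Tomm20l, among the 3 above 0 (0.29), lay below background on every array. Tomm34, a cytosolic co-chaperone of import, had the lowest unadjusted p of the members below 0. It was named after its values were seen, as were Tomm7, Timm29, Timm8b, Grpel2 and Chchd6. Tomm34 measured 7.22, 6.87 and 6.50 in Hlirag and 7.59, 7.59 and 7.11 in the diabetic group. Hlirag 1 lay above diabetic 3, so the groups overlapped, and the difference was -0.57 (SE 0.27, limma, unadjusted p = 0.0709). The receptor Tomm70 differed by -0.38 and the receptor Tomm20 by -0.28, and both were lowest on Hlirag 3. The central receptor Tomm22 (0.08), the channel Tomm40 (-0.05) and the small subunit Tomm7 (-0.03) differed by less than their SE. The TOM median was 0.05 without Hlirag replicate 3, -0.27 without diabetic replicate 3, -0.02 after quantile normalization and -0.25 after median centring, so its sign turned when Hlirag 3 was left out. Beside Samm50, the metaxins Mtx1 (0.13) and Mtx2 (0.12), partners of the SAM complex, also differed by less than their SE. Mtx1 had a mean of 5.84, below background.

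None of 9 genes for intermembrane chaperones and the carrier translocase met the criterion, and their median was -0.10. The means of Timm8a2, Timm10b, Timm29, Timm13, Timm22 and Timm10 lay below background, at 4.75 to 5.97. This median therefore includes dim signal. Timm9 (-0.10) and Timm10 (-0.12), which together form a chaperone of carrier proteins, and the channel Timm22 (-0.17) differed by less than their SE. Timm29, a TIM22 subunit in human cells, was below background on every array and was the only member whose 3 Hlirag arrays all lay under the diabetic ones, while 4.69% of all genes did so. Timm8b, a small Tim chaperone, differed by -0.46 and was lowest on Hlirag 3, at 7.90 against 8.92 to 9.47 in the diabetic group.

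In the remaining roles the medians lay above 0, with all genes at 0.00. The presequence translocase (5 genes), motor (5), matrix enzymes (4) and cristae and CHCH genes (7) had medians of 0.29, 0.43, 0.40 and 0.31, with 18 of these 21 above 0. Under median centring the median over the 21 was 0.23, with 15 above 0. The presequence translocase median was 0.03 when Hlirag 2 was left out and 0.05 when diabetic 3 was. The cristae and CHCH median was 0.17 without Hlirag 3 and 0.20 without diabetic 3. In the full comparison it was the value of Chchd4l1, which lay below background on every array. The roles were grouped after the values had been seen and are not compartments. The inner membrane genes Timm22 and Timm29 stand with the carrier pathway, and the cytosolic Tomm34 with the TOM genes. The intermembrane protein Chchd10 and the non-coding Chchd4l1 stand with the cristae genes. In the translocase, the channel genes Timm23 (0.11) and Timm17a (0.29, and 0.53 on its second probe set) and the alternative subunit Timm17b (-0.09) did not meet the criterion.

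In the motor, Timm44, which tethers Hspa9 to the channel, measured 8.02, 8.31 and 8.09 in Hlirag and 7.81, 7.70 and 7.63 in the diabetic group. The groups did not overlap and the difference was 0.43 (SE 0.21, limma, unadjusted p = 0.0798). Grpel1, the exchange factor of Hspa9, measured 7.16, 7.64 and 7.11 against 6.90, 6.49 and 6.92, again without overlap, a difference of 0.53 (SE 0.25, limma, unadjusted p = 0.0703). Hspa9 itself measured 10.92, 11.64 and 11.46 against 11.17, 10.99 and 10.38. Hlirag 1 lay below 2 diabetic arrays, and the difference was 0.49 (SE 0.31). Pam16, a regulator of the motor, differed by 0.43, which is also the motor median. Pam16 lay below background on diabetic 1, at 5.81, and its difference was 0.13 without that array. Grpel2, the second exchange factor, differed by -0.39. The mean of Grpel2 was 5.85, below background, and its difference was -0.0172 with dim values raised to background.

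In the matrix, Hspe1, the lid of the chaperonin, measured 9.58, 10.11 and 9.69 in Hlirag and 9.54, 9.10 and 9.20 in the diabetic group. The groups came close but did not overlap, and the difference was 0.52 (SE 0.25, limma, unadjusted p = 0.0722). Its neighbour Hspd1, the barrel of the chaperonin, differed by 0.28 on its brightest probe set and 0.51 on its second. Pmpca, the partner of Pmpcb, differed by 0.09. Among cristae genes, Immt, the scaffold of the MICOS complex, measured 9.31, 9.94 and 9.83 against 9.13, 9.33 and 8.73. Hlirag 1 lay just under diabetic 2, and the difference was 0.63 (SE 0.27, limma, unadjusted p = 0.0507). The MICOS subunit Chchd3 differed by 0.56 and the intermembrane protein Chchd10 by 0.39. Chchd6, another MICOS subunit, differed by 0.18 without overlap between groups.

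All 3 Hlirag arrays lay above all 3 diabetic arrays for 7 members, Chchd6, Timm44, Grpel1, Hspe1, Pmpcb, Samm50 and Timm21, while 6.42% of all genes did so.

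**Figure D3:**
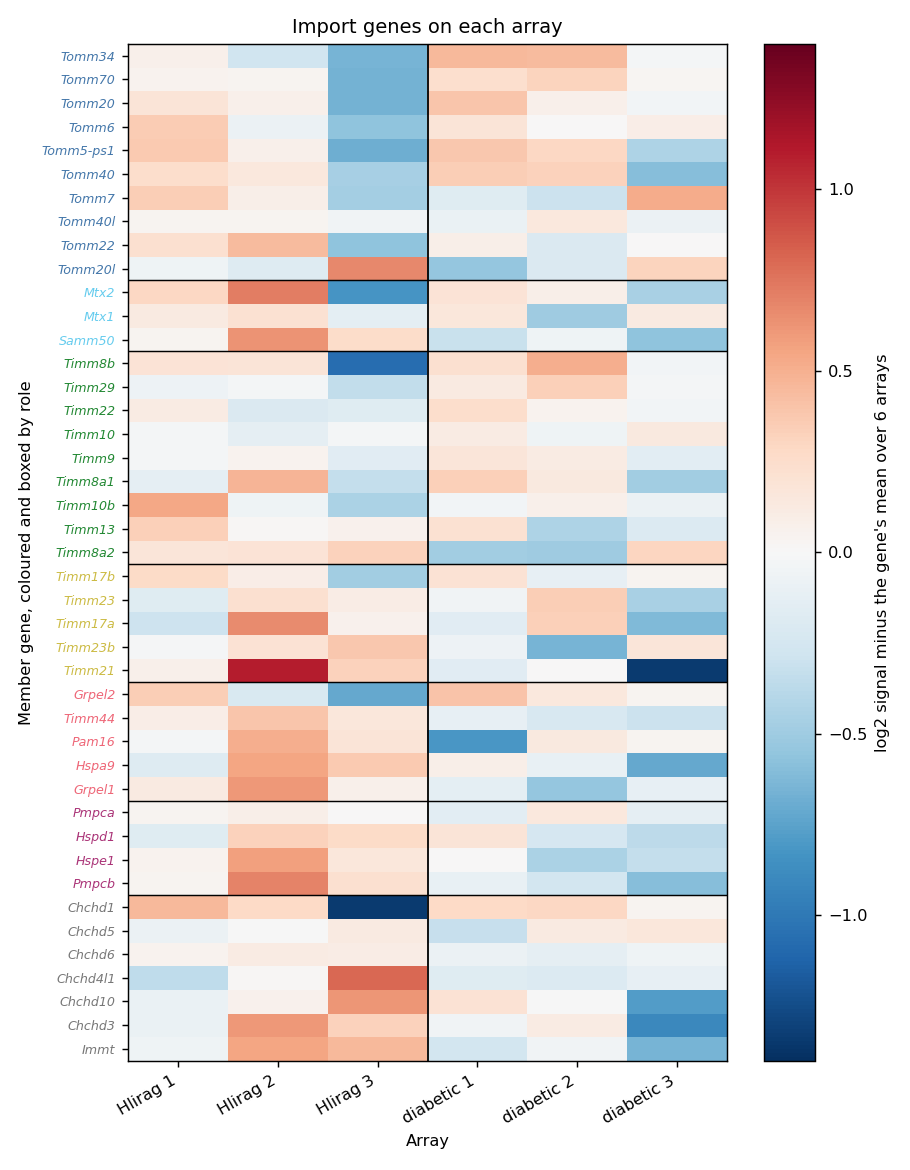
Log2 signal of each member (rows, by role) on each array (columns) minus the gene's mean over the 6 arrays, red above and blue below. Hlirag 2 is the highest array for 17 members, Hlirag 3 the lowest for 15 and diabetic 3 the lowest for 13.

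By array, the motor and matrix genes were highest on Hlirag 2, where their medians lay 0.50 and 0.45 above each gene's mean. The matrix and presequence translocase genes were lowest on diabetic 3, at -0.35 and -0.45. TOM genes were lowest on Hlirag 3, at -0.56. On that array the intermembrane and carrier genes (-0.17) and 72 mitochondrial ribosomal genes (-0.33) were also at their lowest, as was the summed level of smooth muscle markers, at 99.27 against 106.26 to 123.90 on the others. The 91 respiratory chain genes, which import supplies, were also highest on Hlirag 2 (0.53) and lowest on diabetic 3 (-0.52). The brown adipocyte markers had their highest sum on Hlirag 2 (59.47) and their lowest on diabetic 3 (46.58) as well. The uncoupling protein gene Ucp1 measured 12.75 and 7.05 on these arrays, and Cidea and Cox8b had the same highest and lowest arrays. Ebf2 and Dio2 were instead highest on diabetic 1 and Zic1 on diabetic 3, while Elovl3 was highest on Hlirag 2 and lowest on diabetic 1. Cox8b belongs to both the markers and the respiratory chain genes. The part of brown adipocytes in these values was not tested. The median log2 fold change of the respiratory chain genes was 0.53, with 24 higher and 1 lower, 27.5% beside 3.78% of all genes. The higher count was 3 without Hlirag 2, 6 without diabetic 3 and 5 under median centring. Of all genes, 0.589%, 1.57% and 0.705% were higher in these settings. The median of the mitochondrial ribosomal genes was 0.12, with none at the criterion, and it was -0.0048 without Hlirag 2, 0.0064 without diabetic 3 and 0.35 without Hlirag 3. Neither difference from the import genes was tested.

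**Figure D4:**
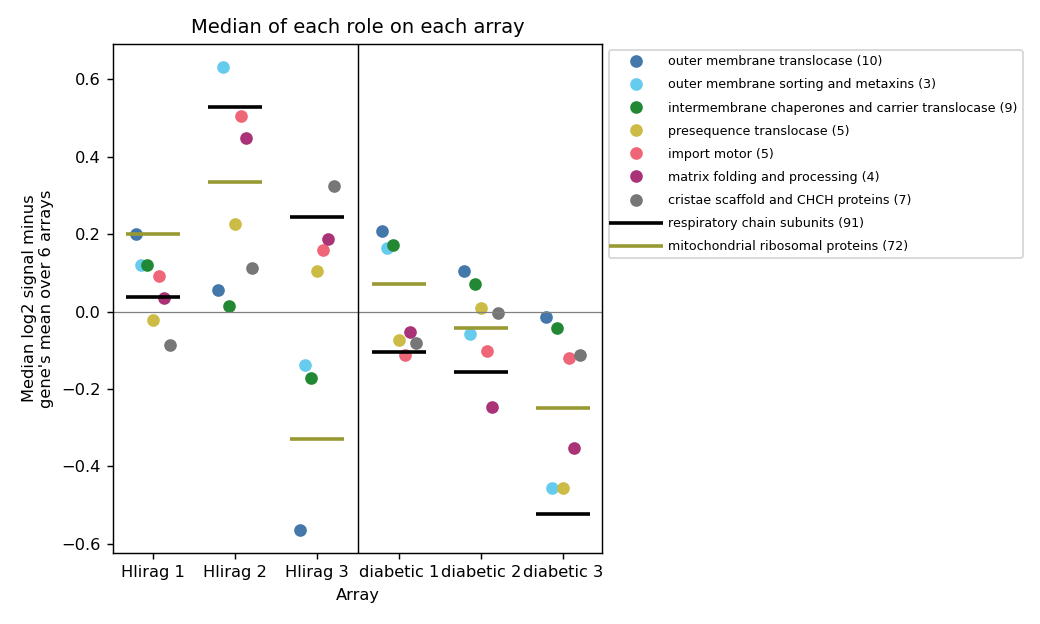
Median over the genes of each role (points, numbers of genes in the legend) of the log2 signal minus the gene's mean over 6 arrays (y axis), by array (x axis). Bars show 91 respiratory chain and 72 mitochondrial ribosomal genes; TOM genes are lowest on Hlirag 3, at -0.56.

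Of 20 measured import partners outside the symbol rule, 2 were higher and 1 lower, a share of 15% beside 3.78% of all genes, with a median of 0.18. None was called without Hlirag 2 or without diabetic 3. Aifm1, which brings the intermembrane import receptor Chchd4 to the inner membrane, differed by 1.02 and Mtch2, an insertase of the outer membrane, by 0.76. Immp2l, a peptidase of the inner membrane, differed by -0.68 and lay below background on every array. None of 12 matrix protease and quality control genes (median 0.22) and none of 11 transcription factors of mitochondrial stress and biogenesis (median -0.17) met the criterion.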

How the data were processed

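RNA was measured on 6 arrays, 3 Hlirag and 3 diabetic. The authors processed the scans with Expression Console, and the deposited values were read as log2 from their range. Summarisation, normalization and centring are not given in the sources used here, and array medians differ. Of 36685 probe sets, 18511 had 1 symbol, and the brightest stood for each gene. limma 3.58.1 (R 4.3.3; lmFit, eBayes, group only) compared Hlirag with diabetic on all 18166 genes, with Benjamini-Hochberg adjustment over all, and was tested on simulated data. The methods' test was a one-way ANOVA per gene. Members and lists were chosen with earlier results of these data known. Named members are those at the criterion and central subunits of each complex. Tomm34, Tomm7, Timm29, Timm8b, Grpel2 and Chchd6 were added after their values had been seen. All 43 symbols matched RefSeq. Arrays have no read depth, and their number limits the precision. Alternatives covered normalization, dim genes, variance model, array weights, probe sets, a replicate block and left-out arrays. A dim filter from gene means (5.60) was added after seeing the data. Python 3.11.15, pandas 2.3.3 and matplotlib 3.10.9 were used. Probe sets with several symbols were left out.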

Additional observations from a re-analysis of the deposited data

How the results depend on the processing

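The count of 3 members at the criterion fell to 0 with the methods' test, median centring, dim genes left out, an intensity trend or array weights. It rose to 5 with quantile normalization (Grpel1 and Immt in addition). Of all genes tested, 3.57% met the criterion with quantile normalization, and 1.30% to 4.83% in the settings before it. The count of members was 2 to 3 with all probe sets, probe set means, dim values raised to background, and a dim filter from gene means. That filter was added after seeing the data. Of all genes tested, 0.826% to 4.69% met the criterion in these settings. With each array left out the count of members ranged from 0 to 5. It was 0 without Hlirag 2 or diabetic 1. Without diabetic 3 it was 2 (Timm8a2 higher and Tomm34 lower), and without Hlirag 1 it was 5 (Immt higher and Tomm34 lower in addition). The share of all genes was 1.24% without Hlirag 2 and 1.89% without diabetic 1. It was 5.85% without diabetic 3 and 11.1% without Hlirag 1. With the replicate number as a block the count of members stayed at 3, while 482 genes were higher and 635 lower in all, 6.15% of all genes. Deviations from the group means correlated at 0.32, 0.04 and 0.15 for same-numbered arrays and at -0.32 to 0.16 for differently numbered ones. These values do not settle whether the numbers pair the samples, and the main comparison did not pair them. The members' median of 0.11 became -0.0287 with median centring and 0.0174 with dim values raised to background, and ranged from 0.0339 (without Hlirag 2) to 0.18 with each array left out.

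Of 551 alternative values of 31 named members, 484 kept direction and call, 31 lost and 8 gained the call, and 28 turned sign, none with an unadjusted p under 0.05. The methods' test, an intensity trend, all probe sets, the replicate block and the dim filters left every log2 fold change as it was. Probe set means did so for members with a single probe set. These settings could change a call but could not turn a sign, so the tally overstates how stable the directions are. Under median centring, the log2 fold change turned to -0.0647 for Tomm22, -0.0287 for Timm23, -0.0063 for Mtx1, -0.0226 for Mtx2 and -0.0546 for Pmpca. Under quantile normalization it turned to 0.0318 for Tomm40, 0.0379 for Timm17b, 0.0039 for Timm9 and 0.0713 for Tomm7. Array weights gave -0.0487 for Hspd1, -0.0416 for Chchd10 and 0.26 for Tomm7. The weight was 9.2 for diabetic 1 and 0.27 to 0.93 for the other arrays, so diabetic 1 dominated its group there. Without diabetic replicates 1 and 2 it was 0.57 for Tomm40, 0.0965 for Timm9 and -0.0626 for Mtx1. With each array left out it ranged from -0.13 to 0.37 for Tomm22, -0.36 to 0.17 for Tomm40, -0.0887 to 0.31 for Timm23, -0.24 to 0.14 for Timm17b, -0.0798 to 0.25 for Mtx1, -0.21 to 0.56 for Mtx2 and -0.22 to 0.22 for Tomm7. The cause of these changes was not tested.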
